A study of Mus musculus with 12 samples.

Results

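The genes described here were the 5 keratins of simple (single-layered) epithelia Krt7, Krt8, Krt18, Krt19 and Krt20, chosen by symbol from the 23420 gene rows of a mouse kidney count table. All 5 passed the filter on low counts, which left 11664 genes for testing. The table held 52 keratin genes in all. RNA was sequenced from 12 kidneys of male C57BL/6J mice, 4 control kidneys and 8 kidneys taken after ischemia followed by 24 h of reperfusion. The labels give 20 min of renal pedicle clamping for every kidney, the controls included, whereas the study's methods describe the controls as kidneys removed by nephrectomy. The series lists 4 mice for each group, and their age was not used here. For the ischemic kidneys, title and group field disagree on whether the mouse was awake, and neutral names were therefore used. Set A (4 kidneys) is titled as ischemia under anaesthesia, with a group field that says conscious, and set B (4 kidneys) is titled as ischemia in conscious mice, with a group field that says anaesthetised. No statement below depends on which set was awake.

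Keratins are the intermediate filament proteins of epithelial cells, and a filament needs a type I and a type II keratin in equal amounts. Keratin 8 (type II) and keratin 18 (type I) are the founding pair of simple epithelia, keratin 7 (type II) and keratin 19 (type I) are typical of ducts, and keratin 20 (type I) is best known from the gut lining and from the superficial cells of the urothelium. In the healthy kidney simple keratins are found mostly in the collecting duct and other distal segments, and injured tubule cells are known to build up more of them.

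Krt7, Krt8 and Krt18 lie together on chromosome 15 and Krt19 and Krt20 on chromosome 11 (GENCODE M21 annotation of mm10). Krt7 (ENSMUSG00000023039.17) spans chr15:101411043-101430313 on the plus strand, Krt8 (ENSMUSG00000049382.10) chr15:101996698-102004482 on the minus strand and Krt18 (ENSMUSG00000023043.7) chr15:102028180-102032027 on the plus strand. Krt19 (ENSMUSG00000020911.14) spans chr11:100140810-100148665 and Krt20 (ENSMUSG00000035775.2) chr11:99428403-99438150, both on the minus strand. Their longest coding transcripts have 9 exons for Krt7 and Krt8, 7 for Krt18, 6 for Krt19 and 8 for Krt20. Of the 1859 windows of 100 bases in the Krt8 transcript, 314 (16.9%) also occur in its pseudogene Krt8-ps, which has no row in the table, so reads from these stretches could have been left out or shared. The other members shared no window of that length with another transcript.

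Sequence around a listed start was available for 4 of the 5 members (RefSeq, GRCm38.p6). The 3 that held a searched motif are shown because they belong to the member with the highest level (Krt8), the largest fold change (Krt20) and the smallest fold change (Krt7). Each line holds the 250 bases before the listed start, 5′ to 3′ on the gene's strand, and the Krt8 line runs 5 bases further to close its motif. Capitals mark GC boxes (GGGCGG) in Krt7 and TATA boxes (TATAAA) in Krt8 and Krt20, searched on both strands. The stretches are chr15:101412153-101412402 (plus strand) for Krt7, chr15:102004338-102004592 (minus strand) for Krt8 and chr11:99438154-99438403 (minus strand) for Krt20. The listed starts are not those of the gene spans above. That of Krt7 lies 1360 bases inside its span, 1 base from the start of the longest coding transcript, so the whole stretch is within the gene. That of Krt8 lies 140 bases inside its span, which holds 145 bases of the stretch, and that of Krt20 lies 3 bases outside.
Krt7: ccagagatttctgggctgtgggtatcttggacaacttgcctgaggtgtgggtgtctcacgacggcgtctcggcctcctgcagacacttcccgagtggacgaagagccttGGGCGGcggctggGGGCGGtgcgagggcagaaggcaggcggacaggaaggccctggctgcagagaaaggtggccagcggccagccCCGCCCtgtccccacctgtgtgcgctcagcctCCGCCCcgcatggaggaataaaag
Krt8: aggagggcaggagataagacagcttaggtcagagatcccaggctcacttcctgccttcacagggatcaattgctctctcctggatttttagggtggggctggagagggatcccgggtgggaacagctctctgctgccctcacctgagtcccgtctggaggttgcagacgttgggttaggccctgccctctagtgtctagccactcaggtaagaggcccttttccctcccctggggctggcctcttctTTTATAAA
Krt20: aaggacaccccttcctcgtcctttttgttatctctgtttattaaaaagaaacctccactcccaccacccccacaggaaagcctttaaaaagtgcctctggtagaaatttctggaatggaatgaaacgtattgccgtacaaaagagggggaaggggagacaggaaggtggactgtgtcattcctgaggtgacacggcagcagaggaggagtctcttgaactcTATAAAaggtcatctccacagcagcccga
The 4 GC boxes of Krt7 began 141, 128, 56 and 24 bases before the listed start. The TATA box of Krt20 began 29 bases before it. In Krt8, 2 overlapping matches on opposite strands began 3 bases and 1 base before it. Among 32851 promoter windows of 300 bases, 35.7% held a GC box and 13.6% a TATA box. An AP-1 motif (TGANTCA) occurred in 7.81% of these windows and a STAT motif (TTCNNNGAA) in 8.30%, and neither was found in the windows of the 4 members. The Krt18 window held none of the 4 motifs.

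Counts per kidney summed to between 15367342 and 44793350, so that 3 counts corresponded to between 0.0661 and 0.190 CPM (counts per 1000000). CPM here were scaled by TMM, edgeR's correction for library composition. The first principal component of log2 CPM (26.5% of the variance) separated all control from all ischemic kidneys, and the second (12.2%) set replicate 4 of set B apart from the other 11 kidneys. Replicates of a group differed by more than the sampling noise in every pair, and nothing in the labels says more about whether they were handled separately.

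All 5 keratins were higher after ischemia in both sets, with the smallest change in Krt7 and the largest in Krt20, which rose from near the detection floor. In edgeR's quasi-likelihood test, 5 of 5 passed an adjusted p below 0.05 as higher in set A, where 10.5% of all genes tested did so (22.3% in either direction). In set B it was also 5 of 5, beside 10.9% of all genes (22.8% in either direction). With both sets averaged it was 5 of 5, beside 12.2% (26.4% in either direction). Krt18 and Krt20 reached the cutoff of the filter in fewer than 4 controls, so that they were tested only because of their level after ischemia, and the count supports nothing for them. The members and the gene lists below were chosen with earlier results of these data known. The shares of all genes are therefore given as background only. The 5 genes had a median log2 fold change of 3.63 (set A) and 3.77 (set B), while that of all genes was -0.02 in both. Both sets were compared with the same 4 control kidneys. In whole-kidney RNA, a change in the number of cells of a type and a change in RNA per cell cannot be told apart.

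**Figure D1:**
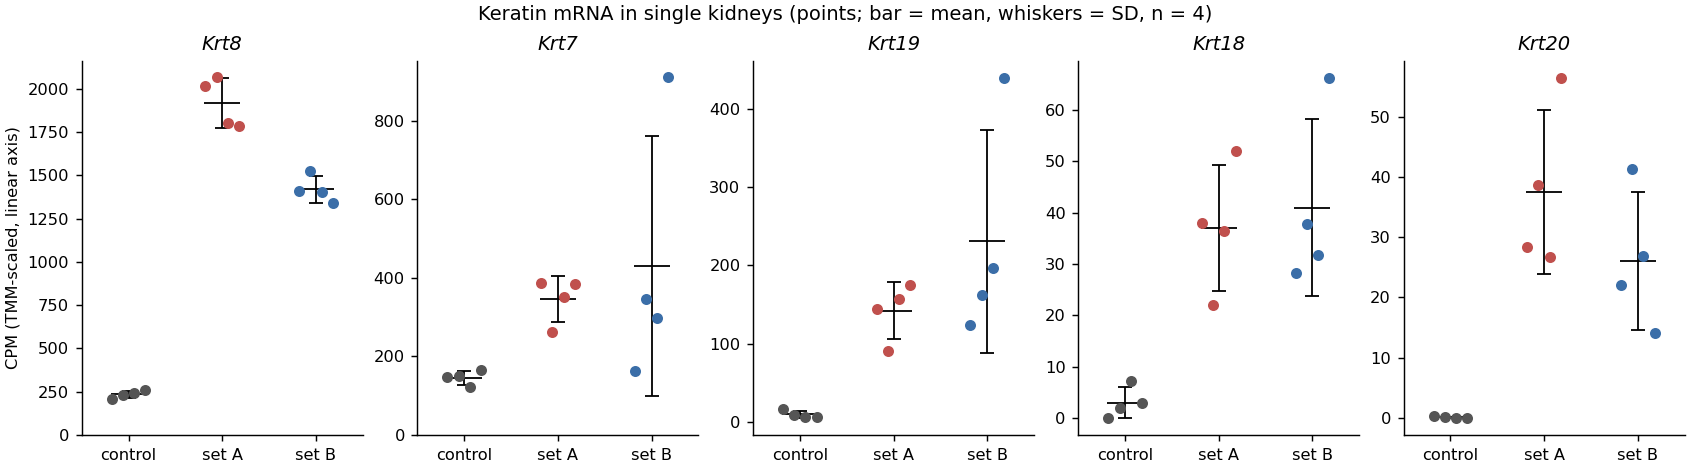
CPM of each of the 5 keratins (vertical axes, linear, each with its own scale) in the 4 control, 4 set A and 4 set B kidneys. Points are kidneys, bars means and whiskers SD (n = 4). Apart from 1 set B kidney for Krt7, all ischemic kidneys lie above all controls.

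Krt8, the type II keratin made by nearly all simple epithelia, was the most abundant of the 5 in every kidney and the least variable. The control kidneys measured 210, 228, 243 and 260 CPM. Set A measured 2015, 2068, 1806 and 1785 CPM, and set B 1408, 1527, 1406 and 1342 CPM. All 8 ischemic kidneys stood above every control, and all set B kidneys stood below all set A kidneys. The log2 fold change was 3.03 ± 0.11 (SE) in set A, with an adjusted p of 1.05e-12 in edgeR. In set B it was 2.60 ± 0.11, with an adjusted p of 6.53e-12 in edgeR. For each set, the exact permutation test of CPM (two-sided, 4 against 4) gave 0.0286, which is the smallest p that this design allows.

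Krt7, the second type II keratin and a marker of ductal epithelia, had the smallest change of the 5 and overlapped with the controls. It measured 146, 150, 121 and 165 CPM in the controls, and 388, 263, 351 and 383 CPM in set A. The set B kidneys measured 163, 347, 298 and 911 CPM. Replicate 1 of set B was below the highest control, and replicate 4 of set B was more than 2 times the next ischemic kidney. The log2 fold change was 1.25 ± 0.33 (SE; edgeR, adjusted p = 0.00858) in set A and 1.56 ± 0.33 (edgeR, adjusted p = 0.00155) in set B. Without replicate 4 of set B, the set B value was 0.89 (edgeR, adjusted p = 0.00200). By exact permutation, p was 0.0286 (set A) and 0.0571 (set B).

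Krt18, the type I partner of Krt8, rose from a few CPM to 22.0 or more. The controls measured 0, 1.90, 7.10 and 2.93 CPM. Set A measured 37.9, 22.0, 36.4 and 52.0 CPM, and set B 28.2, 37.7, 31.8 and 66.2 CPM. All 8 ischemic kidneys lay above all controls, the lowest by about 3 times the highest control. The log2 fold change was 3.63 ± 0.68 (SE; edgeR, adjusted p = 4.60e-04) in set A and 3.77 ± 0.68 (edgeR, adjusted p = 3.45e-04) in set B. These values lean on replicate 3 of the controls, without which they were 4.46 and 4.60 (edgeR, adjusted p = 1.10e-04 and 8.51e-05).

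Krt19, a small type I keratin of ducts and progenitor-like epithelial cells, was higher in both sets as well. The controls measured 16.1, 8.84, 6.95 and 6.53 CPM. Set A measured 144, 91.2, 157 and 175 CPM, and set B 124, 163, 196 and 439 CPM. All ischemic kidneys lay above all controls, and replicate 4 of set B was again the highest. The log2 fold change was 3.90 ± 0.37 (SE; edgeR, adjusted p = 1.77e-07) in set A and 4.60 ± 0.38 (edgeR, adjusted p = 3.09e-08) in set B.

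Krt20 was close to absent from the controls, with 5, 1, 0 and 0 counts (0.240, 0.0260, 0 and 0 CPM). Set A measured 28.3, 38.6, 26.7 and 56.5 CPM, and set B 22.1, 41.4, 26.9 and 14.0 CPM. Every ischemic kidney held at least 221 counts, and replicate 4 of set B, the highest for Krt7, Krt18 and Krt19, was the lowest for Krt20. The log2 fold change was 9.39 ± 0.71 (SE; edgeR, adjusted p = 8.20e-09) in set A and 8.87 ± 0.70 (edgeR, adjusted p = 1.56e-08) in set B. The controls held 6 counts in all, and the ratio of pooled CPM was 695 in set A (95% exact Poisson interval of the control counts, 319 to 1893). For set B it was 524 (241 to 1429), and these intervals cover counting error only, not the spread between controls. Without replicate 1 of the controls, which held 5 of the 6 counts, the log2 fold changes were 11.37 and 10.83 (edgeR, adjusted p = 3.74e-09 and 7.01e-09).

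Over both sets, the exact permutation p (two-sided, 8 against 4) was 0.00404 for Krt8, Krt18, Krt19 and Krt20 and 0.00808 for Krt7. Every kidney of both sets lay above every control for 4 of 5 members, beside 8.43% of all genes tested. By fold change over both sets with every kidney kept, Krt20 ranked 15th among 11664 genes, Krt19 189th, Krt18 238th, Krt8 358th and Krt7 1048th. Krt18 and Krt20 were tested only because of their level after ischemia. Their separation from the controls and their ranks therefore support nothing beside all genes.

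**Figure D2:**
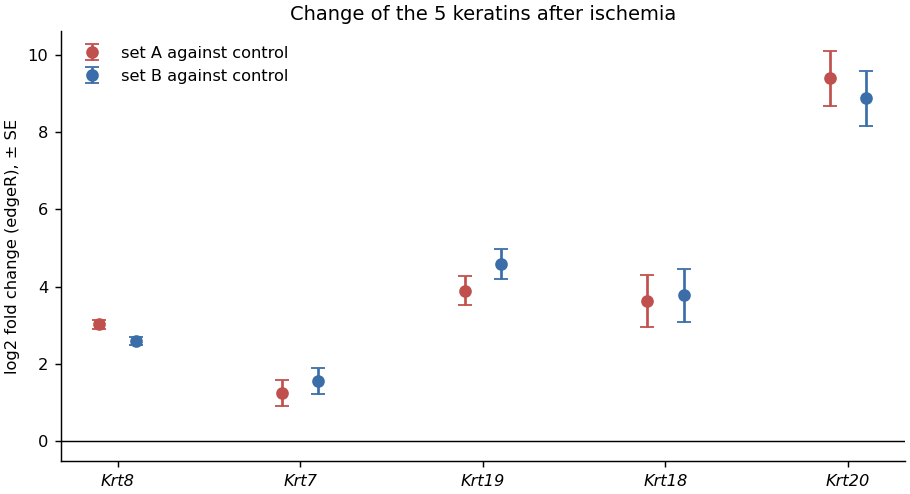
The log2 fold change of each keratin against control (vertical axis, edgeR, whiskers ± SE) for set A and set B. Krt20 changed by about 9 on the log2 scale in both sets and Krt7 by 1.25 and 1.56.

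Set B against set A asks whether the state of the mouse during ischemia, which the labels leave ambiguous, goes with a difference in keratin levels. None of the 5 passed an adjusted p below 0.05 in edgeR, where 0.00857% of all genes tested did so. Before adjustment, 2 of 5 (Krt8 and Krt19) were below 0.05 in edgeR, and 1 (Krt8) in limma-trend, where none passed adjustment. Of all 11664 genes tested, 587 were below 0.05 before adjustment in edgeR. Krt8 was -0.43 ± 0.10 on the log2 scale in set B relative to set A (edgeR, adjusted p = 0.462). All 4 set B kidneys lay below all 4 set A kidneys (exact permutation p = 0.0286), as did 1.32% of all genes tested, and no member lay wholly above (1.29% of all genes). DESeq2 gave Krt8 an adjusted p of 0.00295. Krt19 was 0.70 ± 0.33 (edgeR, adjusted p = 0.981), and its groups overlapped. Without replicate 4 of set B it was 0.18 ± 0.26 (edgeR, unadjusted p = 0.499).

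For the other 3, the 95% intervals of set B minus set A (from the SE, by the normal approximation) included 0. They ran from -0.33 to 0.95 for Krt7, from -1.04 to 1.33 for Krt18 and from -1.38 to 0.34 for Krt20, widths that leave room for differences of more than 1.5 times in each. The direction for Krt7 turned from 0.31 to -0.36 without replicate 4 of set B. That for Krt18 turned from 0.14 to -0.19 without the same kidney and to -0.04 without replicate 2 of set A.

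To compare the keratins with each other, counts were divided by exon length (RPKM, reads per kilobase of the gene's exons per 1000000 counts). In controls the order was Krt8 (120 ± 10.8 RPKM, SD, n = 4), Krt7 (20.7 ± 2.60), Krt19 (5.17 ± 2.39), Krt18 (2.07 ± 2.09) and Krt20 (0.0345 ± 0.0603). Krt8 and Krt7 did not overlap with each other or with those below them, whereas the ranges of Krt19 and Krt18 overlapped, as did those of Krt18 and Krt20. In set A the order was Krt8 (980 ± 73.5), Krt19 (76.6 ± 19.5), Krt7 (49.1 ± 8.24), Krt18 (25.8 ± 8.55) and Krt20 (19.5 ± 7.11). In set B it was Krt8 (726 ± 39.4), Krt19 (124 ± 76.7), Krt7 (61.0 ± 46.8), Krt18 (28.5 ± 12.01) and Krt20 (13.5 ± 5.96). Krt19 thus stood above Krt7 in 8 of 8 ischemic kidneys and below it in 4 of 4 controls. The group ranges of the pair overlapped after ischemia, and with the longest transcript as the length Krt19 was above Krt7 in 6 of 8.

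The 5 genes together summed to 148 ± 10.5 RPKM (SD, n = 4) in controls. In set A the sum was 1151 ± 48.6, and in set B 953 ± 113. Krt8 made up 81.0 ± 1.91% (control), 85.1 ± 3.61% (set A) and 77.0 ± 10.3% (set B) of that sum. The share of Krt7 was 14.0 ± 1.70%, 4.28 ± 0.753% and 6.06 ± 3.89% in the same order. The share of Krt19 was 3.58 ± 1.90%, 6.69 ± 1.86% and 12.6 ± 6.12%. Replicate 4 of set B had the lowest share of Krt8 (62.0%) and the highest of Krt19 (21.4%).

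**Figure D3:**
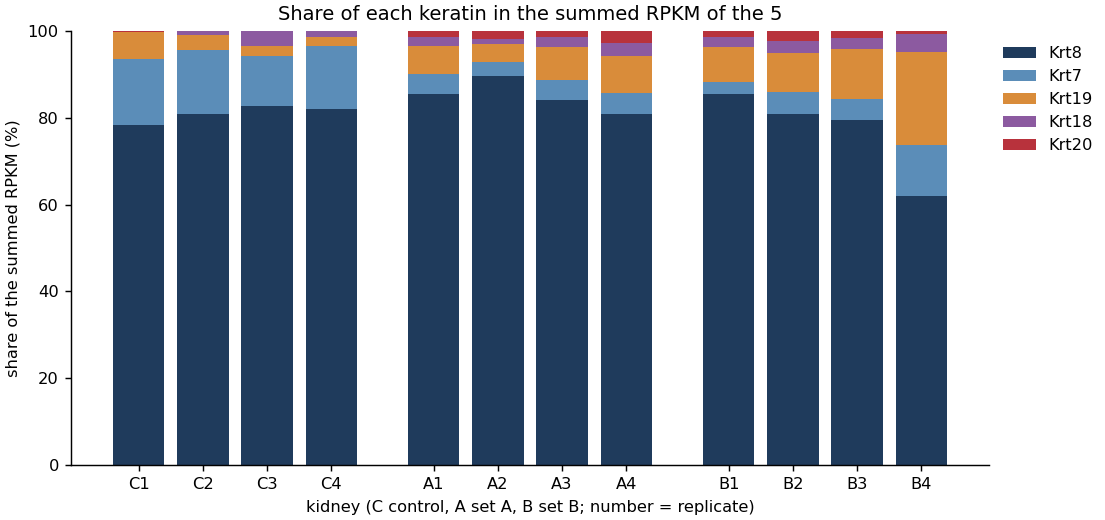
Share of each keratin in the summed RPKM of the 5 (vertical axis, percent) for each kidney (horizontal axis). Krt8 makes up most of every bar, Krt7 is the second largest share in the controls, and replicate 4 of set B has the smallest Krt8 share, 62.0%.

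Because type I and type II proteins pair one to one, the levels of the partners were also set against each other. The summed type I level (Krt18, Krt19, Krt20) was 0.0687, 0.0443, 0.0616 and 0.0356 of the type II level (Krt7, Krt8) in the controls. It was 0.110, 0.0773, 0.128 and 0.166 in set A, and 0.132, 0.163, 0.187 and 0.356 in set B. Among these members, type II mRNA therefore exceeded type I mRNA in all 12 kidneys, by 2.81 to 28.1 times. Other keratin genes of either type were not included. All 8 ischemic kidneys had a higher ratio than all controls. Krt18 stood at 0.0113 to 0.0399 of Krt8 in the 3 controls with a Krt18 count, at 0.0145 to 0.0397 (set A) and at 0.0273 to 0.0672 (set B).

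Krt19 relative to Krt8 was 0.0446 ± 0.0249 (SD, n = 4) in controls, 0.0795 ± 0.0248 (set A) and 0.175 ± 0.116 (set B). Against control, the exact permutation p was 0.0857 (set A) and 0.0286 (set B). Krt7 relative to Krt8 was 0.173 ± 0.0240 (SD, n = 4) in controls, 0.0506 ± 0.0106 (set A) and 0.0857 ± 0.0699 (set B). Here the exact permutation p was 0.0286 (set A) and 0.114 (set B). Replicate 4 of set B carried its set's values, at 0.189, while the other 3 kidneys of the set averaged 0.0514 and lay between 0.0323 and 0.0631, below all controls (0.139 to 0.194). Adjusted over the 16 comparisons of ratios, no p fell below 0.05, the smallest being 0.0646.

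Among the 8 ischemic kidneys, the 10 pairs of members were compared on log2 CPM. By Pearson's r, 0 of 10 pairs passed after adjustment over the pairs (exact permutation test). The largest was Krt18 with Krt19 (r = 0.87, exact p = 0.00590, adjusted p = 0.0590, Spearman's rho = 0.69 with exact p = 0.0694), which fell to 0.41 without replicate 4 of set B and replicate 2 of set A. Krt7 with Krt18 had r = 0.84 (exact p = 0.0146, adjusted p = 0.0732) and rho = 0.93 (exact p = 0.00223, adjusted p = 0.0223), and r = 0.90 without replicates 4 and 1 of set B. Values of both sets were pooled here, and each set alone holds too few kidneys for a correlation. On deviations from the set means, 3 of the 10 pairs passed, so the count depends on whether the sets are centred. These were Krt7 with Krt18 (r = 0.84, rho = 0.95, adjusted p for r = 0.0202 by exact permutation), Krt7 with Krt19 (r = 0.93, rho = 0.90, adjusted p for r = 0.00595 by exact permutation) and Krt18 with Krt19 (r = 0.92, rho = 0.93, adjusted p for r = 0.00595 by exact permutation). Without the 2 kidneys farthest from the median, replicate 4 of set B and 1 other in each pair, r was 0.92, 0.79 and 0.82. These permutations exchange deviations across both sets, which centring makes slightly dependent.

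Of the other 47 keratin genes in the table, 30 had no count in any kidney, 17 had at least 1 and 8 passed the filter. Over both sets 5 of these 8 were higher than control, beside 12.2% of all genes tested. Of the 8, 4 reached the cutoff of the filter in fewer than 4 controls, among them Krt4 and Krt17, which were tested only because of their level after ischemia. Of the 4 that reached it in all controls, 3 were higher. None was lower in edgeR, DESeq2 or limma-trend, also before adjustment (0 at p below 0.05 in each). Krt80 was at 0.08 ± 0.50 on the log2 scale (edgeR, adjusted p = 0.941). All 5 belong to stratified or basal epithelia. Krt5, the type II keratin of basal cells, averaged 9.38 CPM in controls, 117 for set A and 148 for set B, a log2 fold change of 3.82 ± 0.36 (SE; edgeR, adjusted p = 8.28e-08). Krt14, its type I partner, averaged 4.46, 58.4 and 73.4 CPM, a change of 3.88 ± 0.51 (edgeR, adjusted p = 7.60e-06). For both, all 8 ischemic kidneys lay above all controls, as in 8.43% of all genes tested.

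Krt15, another basal type I keratin, changed by 1.52 ± 0.39 over both sets (edgeR, adjusted p = 0.00611). Its set A alone did not pass (0.77 ± 0.43, edgeR, adjusted p = 0.239). Krt17, a type I keratin of wounded and basal epithelium, had 0, 0, 23 and 0 counts in the controls, and averaged 9.57 CPM in set A and 4.79 in set B (4.94 ± 1.36, edgeR, adjusted p = 0.00950). Its set B change (4.44, edgeR, adjusted p = 0.0247) missed the threshold without replicate 2 of set B (4.01, edgeR, adjusted p = 0.0617) and without replicate 1, 2 or 4 of the controls (4.05, 3.99 and 3.99, edgeR, adjusted p from 0.0561 to 0.0608). Without replicate 3 of the controls, the 1 with counts, the fit gave 10.004. The remaining controls held no count, so that value has no measured control level behind it. Krt4, a type II keratin of wet stratified epithelia, had no count in any control and at least 9 in every ischemic kidney. Against 3 counts over the pooled controls its pooled CPM was at least 102.5-fold higher for set A, and for set B at least 188-fold, or 87.7-fold without replicate 4 of set B.

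**Figure D4:**
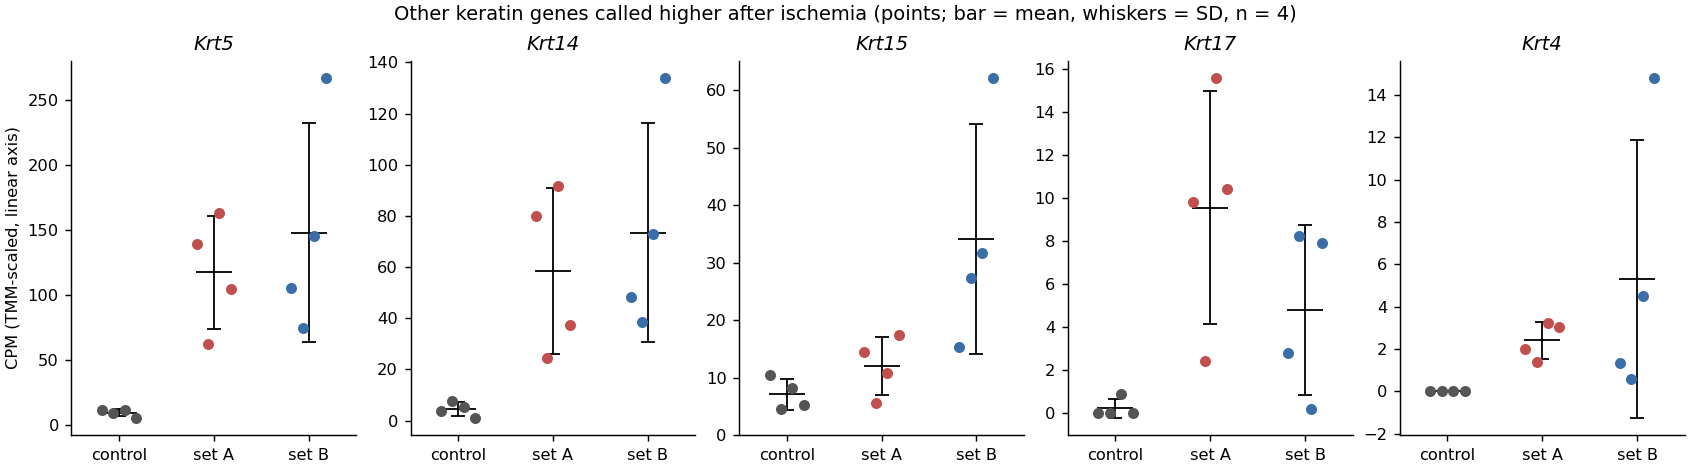
CPM of the 5 other keratin genes that were higher after ischemia (vertical axes, linear, each with its own scale) in the same kidneys. Points are kidneys, bars means and whiskers SD (n = 4). Replicate 4 of set B is the highest kidney for Krt5, Krt14, Krt15 and Krt4.

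Markers of other epithelia were read beside the keratins. Of 8 urothelial markers, Krt5 was higher and the other 3 that passed the filter missed the threshold, among them Upk1a at 1.55 CPM in controls and 0.233 after ischemia. Upk1b was at 1.72 CPM in controls and 1.17 after ischemia. Of the defining uroplakins, which coat the surface of the urothelium, Upk2 and Upk3b were listed at 0 in all 12 kidneys, and so was the surface antigen Psca. Upk3a had counts in 1 control kidney only. The table also lists 0 in all 12 kidneys for the haemoglobin genes Hba-a1 and Hba-a2 and for the fat cell gene Cfd, so a 0 there need not mean that no RNA was present. The summed level of the list ranged from 10.04 to 16.7 CPM in controls, 66.1 to 165 across set A and 76.0 to 274 across set B, and after ischemia nearly all of it was Krt5. For the stratified list, 4 of 5 genes tested were higher (12.2% of all genes), Ivl among them through its level after ischemia alone, and its sum ranged from 10.7 to 24.4 CPM in controls, 174 to 359 across set A and 171 to 489 across set B. Of its markers, Krt1 and Dsg3 had at most 3 counts in each kidney. Ivl (involucrin, a precursor of the cornified envelope) had no count in any control and at least 43 in every ischemic kidney. Against 3 counts over the pooled controls, its pooled CPM was at least 245.9-fold higher for set A and at least 333-fold higher for set B. A single kidney carried much of each bound, which was 136-fold without replicate 1 of set A and 158-fold without replicate 4 of set B. The part of such cells in the keratin levels was not tested.

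The normal site of simple keratins was read from collecting duct genes. None of 10 principal cell markers tested was higher or lower after ischemia in edgeR, DESeq2 or limma-trend, with 0 at an unadjusted p below 0.05 in each. Among all genes tested, 26.4% passed in either direction in edgeR and 35.9% had an unadjusted p below 0.05. Tfcp2l1 was at 0.36 ± 0.22, Scnn1b at 0.38 ± 0.24 and Hsd11b2 at -0.66 ± 0.46 on the log2 scale, and 6 of the 10 were above 0. The summed list ranged from 271 to 347 CPM in controls, from 256 to 356 across set A and from 204 to 593 across set B. Replicate 4 of set B, the highest kidney for Krt7, Krt18 and Krt19, was also the highest for this sum and for Tfcp2l1 (258 CPM, at most 183 elsewhere) and Scnn1b (69.8 CPM), and the part of principal cells in its keratin levels was not tested. Of 6 intercalated cell markers 3 were above 0 and 3 below, and 2 passed. Slc4a1, the basolateral chloride-bicarbonate exchanger, and Atp6v1b1, a proton pump subunit, were lower (-2.55 ± 0.30 and -0.86 ± 0.24, beside 14.2% of all genes), the latter no longer without replicate 1 of the controls (-0.60, edgeR, adjusted p = 0.102). Slc26a4 (pendrin) was at -0.75 ± 0.39 (edgeR, adjusted p = 0.174) and passed only without replicate 4 of set A among the kidneys left out (-1.06, edgeR, adjusted p = 0.0370). Proximal tubule markers fell in 9 of 9 (14.2% of all genes), among them Slc34a1, the phosphate transporter, by 3.54 ± 0.22 on the log2 scale, Slc27a2 by 2.98 ± 0.22 and the water channel Aqp1 by 2.87 ± 0.18. Markers of injured tubule rose in 10 of 12 (12.2% of all genes), or in 6 of the 7 that reached the filter's cutoff in all controls, with Spp1 (osteopontin) at 5.24 ± 0.20, Clu (clusterin) at 4.50 ± 0.23 and Anxa2 (annexin A2) at 3.54 ± 0.19. The summed proximal list ranged from 7150 to 7938 CPM in controls and from 456 to 1476 over both sets, and the part of this shift in the keratin levels was not tested.

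Keratin filaments are anchored at desmosomes and hemidesmosomes, and 7 of 13 of their genes tested were higher and 2 lower after ischemia (12.2% and 14.2% of all genes), with a median log2 fold change of 0.59 (-0.03 for all genes). Of the 12 that reached the filter's cutoff in all controls, 6 were higher and 2 lower. Plec (plectin, which links filaments to junctions) changed by 1.965 ± 0.14, Itga6 (a hemidesmosome integrin) by 1.88 ± 0.17 and Ppl (periplakin) by 3.24 ± 0.28. Of 7 other intermediate filament genes, 3 were higher (12.2% of all genes), Vim (vimentin) at 2.11 ± 0.19, Lmna (lamin A) at 1.20 ± 0.24 and Nes (nestin) at 1.34 ± 0.36. Among 18 genes for proteins that bind, phosphorylate or clear keratins, 4 were higher and 2 lower, beside 12.2% and 14.2% of all genes tested. Sfn (14-3-3 sigma) changed by 3.76 ± 0.25, Cryab (a small heat shock protein) by 2.53 ± 0.20 and Mapk14 (p38, a keratin kinase) by -0.60 ± 0.13. All these values are edgeR log2 fold changes ± SE over both sets, and each named gene passed the threshold.

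Of 19 transcription factor genes linked to epithelial genes, 16 were higher and none lower (12.2% and 14.2% of all genes), or 14 higher of the 16 that reached the filter's cutoff in all controls, with 0 lower at an unadjusted p below 0.05 in edgeR, DESeq2 and limma-trend (median log2 fold change 1.60). Klf5 changed by 4.04 ± 0.34, Klf6 by 2.92 ± 0.21 and Stat3 by 1.49 ± 0.12. In each, all 8 ischemic kidneys lay above all controls, as in 8.43% of all genes tested. These genes were named for the smallest p of the list, so that separation follows in part from the choice. Trp63, the basal cell factor, was at 1.48 ± 1.04 and did not pass (edgeR, adjusted p = 0.354). Mesothelial markers, another source of keratins at the kidney surface, gave 1 higher (Wt1, which podocytes also make, 0.77 ± 0.23, not past the threshold without replicate 2 or 3 of the controls) and 1 lower of 3 (Gpm6a, -2.88 ± 0.31). Efemp1 was at 0.82 ± 0.30 (edgeR, adjusted p = 0.0545) and passed without replicate 2 of set A or replicate 1 of set B (edgeR, adjusted p = 0.0175 and 0.0228). With every kidney kept, it also passed in DESeq2 (adjusted p = 0.0355), with RLE size factors (edgeR, adjusted p = 0.0463) and when genes had to exceed 1 CPM in 4 or more kidneys (edgeR, adjusted p = 0.0441). Of the blood markers, Alas2 was the 1 tested and was lower (-6.24 ± 1.81, not past the threshold without replicate 3 of the controls), and of the fat markers Fabp4 was the 1 tested (-0.91 ± 2.004). Alas2 in set A alone did not pass (-3.45, edgeR, adjusted p = 0.311), and no set B kidney had a count of it.

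The genes most like each keratin were found from the root mean square difference of log2 CPM, centred on each gene's mean over the 12 kidneys, among 8512 genes. For Krt8 they were Actn1 (alpha-actinin, 0.21), Vat1 (0.25) and Mvp (the major vault protein, 0.28). For Krt7 they were Grhl2 (a grainyhead factor, 0.25), Pkm (pyruvate kinase, 0.26) and Dsp (desmoplakin, 0.28). For Krt19 they were Clu (0.46), Krt5 (0.46) and Chrnb1 (0.57), for Krt18 Slc34a2 (0.73), Etv4 (0.74) and Eif4ebp1 (0.83), and for Krt20 they included Hk2 (hexokinase, 0.74) and Flnc (filamin C, 0.93). No keratin of the 5 was among the 3 most like another. The measure takes in both the step between control and ischemic kidneys and the spread within groups, and these were not separated.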

How the data were processed

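RNA from 12 kidneys was sequenced from stranded mRNA libraries. The authors aligned reads with STAR (mm10) and obtained gene counts with HTSeq (versions not given in the sources used here), and the deposited values are raw counts without normalization. Tests used edgeR 4.0.16 (R 4.3.3). The filter of edgeR (minimum count 10, minimum total 15) left 11664 genes, which were TMM-scaled and fitted with 1 coefficient per group. Two-sided quasi-likelihood F-tests received Benjamini-Hochberg adjustment across these 11664 genes (threshold 0.05). Standard errors are the log2 fold change divided by the square root of F. Single values were compared with exact permutation tests (SciPy 1.17.1), and log2 CPM used a prior count of 2. RPKM used the union of exons in GENCODE M21. Other tools were Python 3.11.15, NumPy 2.4.6, pandas 2.3.3 and matplotlib 3.10.9. The procedure was tested on simulated data.

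The members and lists were chosen with earlier results of these data known. Named were the 5 members, the other keratins past the threshold or highest in controls, the 3 genes of each list with the smallest p in ischemia against control, urothelial markers, the 3 genes most like each member, and Krt1, Dsg3, Ivl, Hba-a1, Hba-a2 and Cfd, which were chosen after their values were seen. A gene that this rule names is not reported here. Alternatives were DESeq2 1.42.0, unfiltered counts, RLE size factors, more than 1 CPM in at least 4 kidneys, limma-trend (limma 3.58.1), a replicate block, a fit without the third group, the longest transcript as the length, counted totals without TMM, and leaving out each kidney. The series lists 4 mice per group but says nothing of shared handling. Same-numbered kidneys did not deviate together (correlations of deviations from -0.06 to 0.05 in 12 pairs).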

Additional observations from a re-analysis of the deposited data

Results flagged for a closer look

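Of 32 groups of 4 kidneys, 2 held a kidney far from the others. For Krt20, replicate 1 of the controls stood at 0.240 CPM, 5 counts, with the next control at 0.0260. For Krt17, replicate 3 of the controls stood at 0.888 CPM, with the other controls at 0. Both values are small beside the ischemic kidneys, except that replicate 3 of set B held 0.193 CPM of Krt17. Chance marks about 1 in 20 groups in this way where values are well above 0, a rate that does not hold here, since any count among controls at 0 stands apart.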

How the results depend on the processing

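Against control, the 5 keratins kept their direction and their side of the threshold in 95 of 95 alternative values for set A, 95 of 95 for set B and 90 of 90 for both sets, with adjusted p up to 0.0323, 0.00912 and 0.00745. Set B against set A gave 1 gene in the reported fit, 29 with DESeq2, 6 with no filter on low counts, 0 with only the groups compared, 0 with limma-trend and 0 to 7 with a kidney left out. No member passed in these except Krt8 with DESeq2 (-0.43, adjusted p = 0.00295). With a kidney left out, set B minus set A ranged from -0.36 to 0.58 for Krt7 and from -0.19 to 0.35 for Krt18, and was -0.04 for Krt18 without replicate 2 of set A. The cause of these shifts was not tested.

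The replicate number as a block gave 2491, 2531 and 2974 genes for set A, set B and both sets against control (2599, 2659 and 3084 without it) and 1 for set B against set A. It changed no call of a member. Same-numbered kidneys showed no pairing in their deviations, since 0 of 12 such pairs had a correlation over 0.1. Of 12 kidneys, 2 correlated best with their own number. Neither value tells whether kidneys shared a mouse or handling.

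With a kidney left out, the log2 difference from control in the type I to type II ratio ranged from 1.014 to 1.38 in set A and from 1.65 to 2.12 in set B. Krt19 over Krt8 ranged from 1.52 to 2.25 in set B, and Krt7 over Krt8 from -1.89 to -1.62 in set A. Tests with 3 kidneys against 4 cannot go below p = 0.0571 (exact permutation), so their p-values say nothing about stability. The differences just listed kept their sign with each kidney left out. Krt7 over Krt8 in set B minus set A ranged from -0.010 to 0.84. With deviations from set means, 3 of the 10 pairs of members passed. Without centring, 0 of 10 pairs passed with every kidney kept, and 0 to 2 with a kidney left out. Pearson's r ranged from -0.54 to 0.47 for Krt7 with Krt8, from -0.70 to 0.53 for Krt7 with Krt20, from -0.69 to 0.46 for Krt18 with Krt20 and from -0.76 to 0.077 for Krt19 with Krt20, the highest values being those without replicate 4 of set B. Among the minor results 4 reversed, 21 moved, 7 came past the threshold and 551 did not change. With few counts in the controls, the fold of Krt20 is limited by depth.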
